A study of Homo sapiens with 6 samples.

Results

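The HOX genes are 39 protein-coding genes in 4 clusters, and they were taken here as every protein-coding row whose symbol is HOXA, HOXB, HOXC or HOXD followed by a number, out of 44591 genes listed. All 39 were found. HOXA held 11 genes (chromosome 7, 27132612 to 27239725), HOXB 10 (chromosome 17, 46606807 to 46806111), HOXC 9 (chromosome 12, 54332576 to 54449814) and HOXD 9 (chromosome 2, 176957532 to 177055635), in the deposited coordinates, whose build the submitters' processing notes name as hg19. Polyadenylated RNA was sequenced from A2780, a human ovarian cancer cell line described as wild type in the labels. One group of 3 samples was left untreated and the other 3 received 40 ng/ml recombinant human CRMP2 (r-CRMP2) in the medium for 48 h; the untreated samples carry the same 48 h time in their titles. CRMP2 is a tubulin-binding cytoplasmic protein best known from axon growth, and the comparison asks how the cells' transcripts differ after it is supplied from outside. Nothing in the labels says whether the 3 samples of a group were separate cultures. The p-values set group differences against the spread between these samples only, and may not extend to separate cultures. The use of 1 cell line limits the model.

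HOX proteins are homeodomain transcription factors that give cells a position along the body axis. Genes at 1 end of a cluster act in the hindbrain and neck, those in the middle in the trunk, and those at the other end in the lumbosacral region, the distal limb and the urogenital tract, and this order on the chromosome is mirrored in the order of their expression in the embryo. They bind DNA with TALE partners (PBX, MEIS and PKNOX proteins), their chromatin is held open by trithorax complexes and silenced by Polycomb complexes, and retinoic acid is a classical inducer. In the female reproductive tract, HOXA9, HOXA10, HOXA11 and HOXA13 mark successive segments from the oviduct to the upper vagina.

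Library totals ranged from 21888530 to 25711353 counts, and replicate libraries of a group differed by more than sampling noise. Libraries were scaled by TMM, a normalization that corrects for composition, and the values compared between groups are counts divided by the scaled library total (CPM). The scaling matters here: over the 16222 genes that could be tested, the median change on the log2 scale was -0.03 after TMM and -0.34 when only library size was used. One library stood apart, r-CRMP2 replicate 3, in which 14573 protein-coding genes had a count against 16817 to 17153 in the other 5. Epithelial keratins KRT7, KRT8 and KRT18 were abundant, but 2 other defining epithelial and ovarian markers, CDH1 and WT1, were near 0, with at most 5 and 3 counts in a library. The remaining markers of the epithelial list are not given by name. Of 3 immune markers, PTPRC and CD3E also stayed near 0, with at most 4 and 2 counts, but CD68 did not and is described below. The summed TPM of the immune list ranged from 28.0 to 33.3 untreated and from 77.5 to 78.4 with r-CRMP2.

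The clusters also hold microRNAs, and the miR-196 family is shown because the HOXB8 transcript, which rose with r-CRMP2, is a known cleavage target of it. The mature sequences of the miR-196 family (RefSeq, GRCh38.p14) are given with the seed, bases 2 to 8, in capitals, and the best match to the miR-196a-5p complement in HOXB8 is given with the only mismatched base in capitals.
hsa-miR-196a-5p: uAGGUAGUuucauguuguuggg
hsa-miR-196b-5p: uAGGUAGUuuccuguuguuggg
HOXB8-201, positions 1378 to 1399: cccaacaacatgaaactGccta
The miR-196a-5p sequence is made from MIR196A1 in the HOXB cluster (chr17:48632532-48632553, minus strand) and MIR196A2 in the HOXC cluster (chr12:53991762-53991783, plus strand), and miR-196b-5p from MIR196B in HOXA (chr7:27169528-27169549, minus strand), and all share 1 seed. HOXB8 matched 21 of 22 bases, and 1 of 19669 protein-coding genes, HOXB8 itself, reached that number among GENCODE v29 transcripts. The seed complement ACTACCT was in 10 of 39 HOX transcripts (25.6%) and in 17.1% of all. HOXB8 was not among the 10, since its mismatched base falls within that stretch. The libraries were made from polyadenylated RNA and the hairpin rows held 0 to 2 counts per library, so mature microRNAs were not measured.

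Promoters (250 bases before to 50 after the RefSeq start, GRCh38.p14) were at hand for 20 of the 39 members, in 26 distinct windows. Of the 6 HOX genes that passed both thresholds described below and the 3 most abundant, HOXC4 and HOXA6 were among them, and they are shown because both fell with r-CRMP2. Capitals mark ACGTG or GCGTG, on either strand, the core that hypoxia-inducible factors bind.
HOXC4: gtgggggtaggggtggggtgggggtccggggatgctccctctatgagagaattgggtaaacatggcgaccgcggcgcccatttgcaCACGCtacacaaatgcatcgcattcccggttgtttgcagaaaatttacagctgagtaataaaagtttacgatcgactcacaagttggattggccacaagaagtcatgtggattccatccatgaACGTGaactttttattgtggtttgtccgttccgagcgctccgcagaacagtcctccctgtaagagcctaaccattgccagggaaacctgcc
HOXA6: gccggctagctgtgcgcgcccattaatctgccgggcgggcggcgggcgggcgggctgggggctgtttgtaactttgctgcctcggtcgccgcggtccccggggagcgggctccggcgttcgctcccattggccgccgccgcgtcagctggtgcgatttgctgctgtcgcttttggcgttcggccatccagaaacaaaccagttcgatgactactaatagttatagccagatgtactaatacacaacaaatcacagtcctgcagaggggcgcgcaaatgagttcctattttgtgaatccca
The HOXC4 window (chr12:54016638-54016937, plus strand) is also the window of HOXC5 and held 2 matches, and the HOXA6 window (chr7:27147725-27148024, minus strand) held 0. Among the 26 windows, 18 held at least 1 match (69.2%), against 48.4% of all 34943 promoter windows. ACGTG was in 53.8% of the 26, against 21.4% of all, and GCGTG in 42.3%, against 36.5%. Several of the 26 windows belong to HOXA3 and others to genes with too few counts to test, such as HOXD13. HOXB8, HOXB9, HOXB13, HOXC6 and HOXC10 had no window, and no difference was tested. The other motifs searched on both strands were a PBX-HOX site, TGATTNAT (2 windows, 7.69%, against 2.82% of all), a MEIS site, TGACAG (4 windows, 15.4%, against 15.8%), and a retinoic acid receptor half-site, AGGTCA (0 windows, against 13.8%). These matches describe letters and not binding.

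In untreated cells the HOX transcripts came mostly from the middle and the far end of the clusters. HOXC supplied 58.3% ± 1.15 (SD, n = 3) of the summed HOX TPM, a unit that divides counts by gene length and sums to the same total in each library, HOXA 19.9% ± 0.24, HOXB 19.0% ± 0.84 and HOXD 2.82% ± 0.48. Of the 39 genes, 22 had a mean of at least 1 TPM. Paralogue numbers 9 to 13 held 58.1% ± 2.03 of the sum, numbers 4 to 8 held 38.3% ± 1.97 and numbers 1 to 3 held 3.63% ± 0.07, with the ranges chosen after the values were seen.

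**Figure D1:**
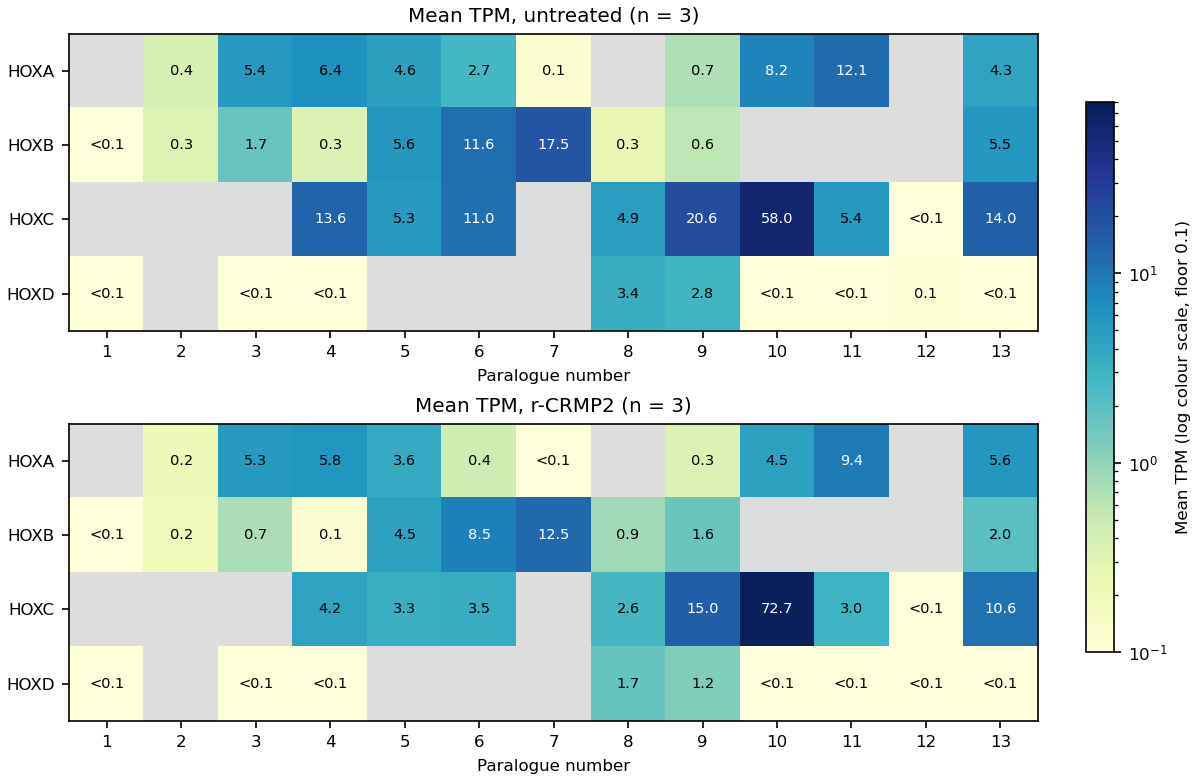
Mean TPM of HOX genes by cluster (rows) and paralogue number (columns) in untreated and r-CRMP2 libraries (n = 3 each), on a log colour scale, with grey where no gene exists or none is shown. HOXC10 was highest in both groups (58.0 and 72.7 TPM), and most of the HOXD row stayed below 1 TPM.

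HOXC10, which takes part in lumbar motor neuron identity, was the most abundant, at 58.7, 56.9 and 58.5 TPM in untreated replicates 1, 2 and 3. It was followed by HOXC9, a determinant of thoracic motor neurons, at 21.2, 19.8 and 20.8 TPM, and by HOXB7 at 17.3, 16.8 and 18.3 TPM. The ranges of these 3 overlapped neither each other nor the next gene. HOXC13, known from hair and nail keratinization, HOXC4, HOXA11, HOXB6 and HOXC6 came next with means between 11.0 and 13.96 TPM, and neighbours in that order overlapped. HOXA10, a regulator of uterine identity, averaged 8.24 TPM, with every library below those of HOXC6. A further 13 genes, from HOXA4 at 6.45 TPM down to HOXB3 at 1.67 TPM, followed in an order in which most neighbours overlapped.

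Of the other 17 genes, HOXA9, HOXB9 and HOXB8 could be tested and 14 had too few counts for the filter on low values. Among these 14 were HOXB1, HOXB4, HOXC12, HOXD1, HOXD3, HOXD4, HOXD10, HOXD11, HOXD12 and HOXD13. None had more than 15 counts in a library or a group mean above 0.361 TPM. Together they had 37, 42 and 38 counts in the untreated libraries and 22, 25 and 8 with r-CRMP2, the lowest in r-CRMP2 replicate 3. In GENCODE v29, 86.7% of the 75-base stretches of HOXD3 and 74.3% of those of HOXD4 also occur in transcripts of AC009336.2. For HOXD11, 26.3% also occur in transcripts of HOXD10. How such reads were assigned is not given in the sources used here, so the low counts of these genes are uncertain to that extent. HOXD13, a regulator of digit and genital development, had 0 counts in all untreated libraries, which allows up to 0.0418 CPM over the group, a limit for counting error only.

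With r-CRMP2 the HOX genes moved in both directions. Of the 25 tested, 4 rose (16.0%) and 9 fell (36.0%) with an adjusted p under 0.05, while 12 did not pass; over all 16222 genes tested 28.2% rose and 30.1% fell. The share that fell was close to that of all genes and the share that rose was below it, and neither difference was tested. Scaled by library size alone, the counts were 4 higher and 17 lower, against 13.4% and 52.1% of all genes. At an absolute log2 fold change above 1 as well, HOXB8 and HOXB9 rose (8.0%, against 5.12% of all genes) and HOXA6, HOXB13, HOXC4 and HOXC6 fell (16.0%, against 8.86%). HOXB8 and HOXA6 passed the filter on low values only through the group where they were higher, so these shares say nothing about the set. With at least 10 counts asked of every sample, neither gene was tested. No difference between these shares was tested. The median log2 fold change of the 25 was -0.16, against -0.03 for all genes. Adjusted p-values come from the quasi-likelihood test of edgeR, adjusted by Benjamini-Hochberg over all genes tested, and standard errors (SE) come from the spread between replicates.

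**Figure D2:**
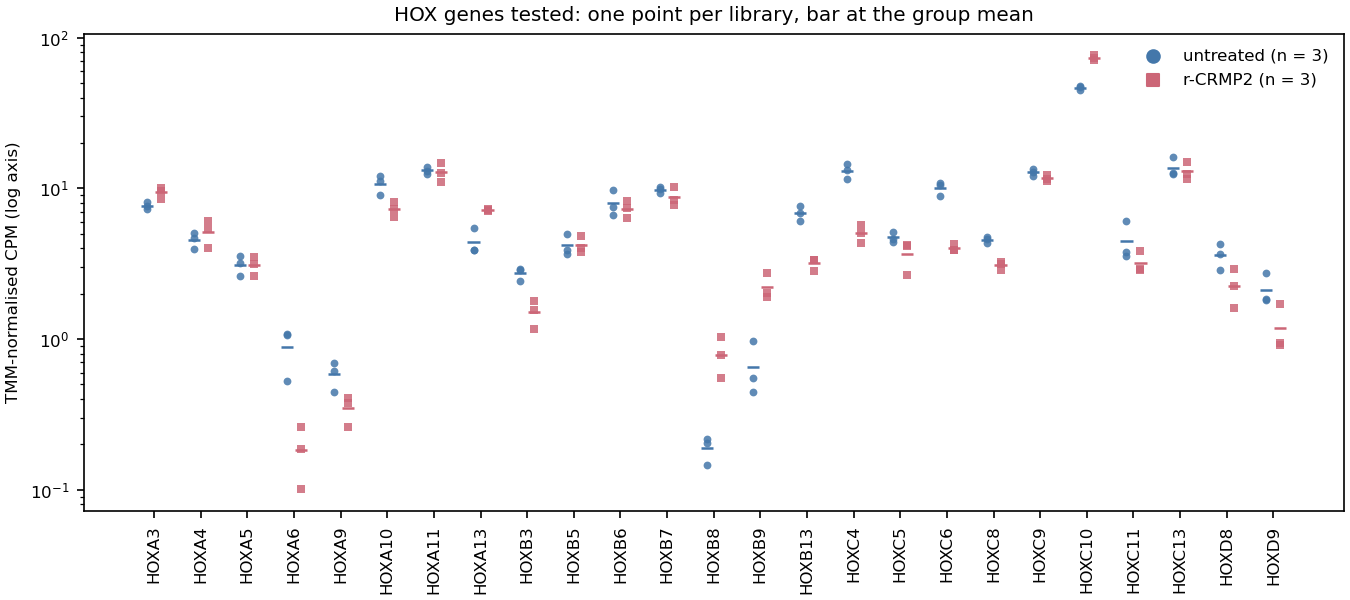
TMM-normalised CPM (log axis) of the 25 HOX genes tested, 1 point per library and a bar at each group mean (n = 3 untreated, n = 3 r-CRMP2). HOXB8, HOXB9, HOXA13 and HOXC10 lie higher in every r-CRMP2 library, and HOXA6, HOXB13, HOXC4 and HOXC6 lie lower in every one.

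The 2 largest rises were neighbours in the HOXB cluster. HOXB8 (chromosome 17, 46689708 to 46692301, minus strand), which keeps myeloid progenitors dividing when overexpressed, had 6, 5 and 4 counts in the untreated libraries and 22, 11 and 18 with r-CRMP2. This equals 0.216, 0.204 and 0.146 CPM untreated and 1.03, 0.556 and 0.784 CPM with r-CRMP2, with a log2 fold change of 2.05 ± 0.26 (SE, edgeR adjusted p = 0.000896). HOXB8 passed the filter on low values only through the r-CRMP2 group, and with at least 10 counts asked of every sample it was not tested. HOXB9 (46698518 to 46703835, minus strand), known from patterning of the thoracic skeleton and mammary gland, had 27, 11 and 15 counts in the untreated libraries and 59, 40 and 44 with r-CRMP2, or 0.971, 0.448 and 0.548 CPM untreated and 2.76, 2.02 and 1.92 CPM with r-CRMP2. Its change was a log2 fold change of 1.75 ± 0.34 (SE, edgeR adjusted p = 0.000117). For both genes every r-CRMP2 library was above every untreated one, although the levels were low: HOXB8 averaged 0.252 ± 0.05 TPM untreated and 0.850 ± 0.29 TPM with r-CRMP2 (SD, n = 3), and HOXB9 0.589 ± 0.24 and 1.62 ± 0.39 TPM. Tested against a fold change of 2 rather than against no change, neither passed (edgeR adjusted p = 0.0821 and 0.0695).

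The rest of HOXB did not follow. HOXB13 (46802125 to 46806111, minus strand), a partner of the androgen receptor in prostate, lies at the far end of the cluster and had 7.59, 6.85 and 6.03 CPM untreated and 3.37, 3.34 and 2.83 CPM with r-CRMP2. It fell, with a log2 fold change of -1.10 ± 0.12 (SE, edgeR adjusted p = 8.66e-06). HOXB3, a hindbrain gene that spans HOXB4 on the same strand, had 2.44, 2.85 and 2.92 CPM untreated and 1.78, 1.57 and 1.18 CPM with r-CRMP2 and also fell, with a log2 fold change of -0.86 ± 0.18 (SE, edgeR adjusted p = 0.00384). In neither did the groups overlap. HOXB7, the most abundant gene of the cluster, had 9.85, 9.29 and 10.2 CPM untreated and 8.43, 10.3 and 7.75 CPM with r-CRMP2, and its groups overlapped (a log2 fold change of -0.16 ± 0.13, SE, edgeR adjusted p = 0.303). HOXB6 had 6.62, 9.74 and 7.49 CPM untreated and 7.40, 6.32 and 8.27 CPM with r-CRMP2, and HOXB5, a gene of enteric neural crest and lung development, had 3.67, 4.97 and 3.91 CPM untreated and 4.82, 3.79 and 4.05 CPM with r-CRMP2. Their groups overlapped too, with log2 fold changes of -0.11 ± 0.20 and 0.02 ± 0.17, the second of which was -0.29 with library size alone.

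Ratios of 2 genes within a library need no scaling between libraries, and those given here were chosen after the values were seen and were not tested. HOXB8 had 0.0219, 0.0219 and 0.0143 counts for each HOXB7 count in the untreated libraries and 0.122, 0.0542 and 0.101 with r-CRMP2. HOXB9 had a mean of 0.0668 ± 0.03 per HOXB7 count untreated and 0.257 ± 0.07 with r-CRMP2 (SD, n = 3). HOXB13 went the other way, from 0.699 ± 0.10 to 0.363 ± 0.04 per HOXB7 count. The groups did not overlap in any of these ratios.

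**Figure D3:**
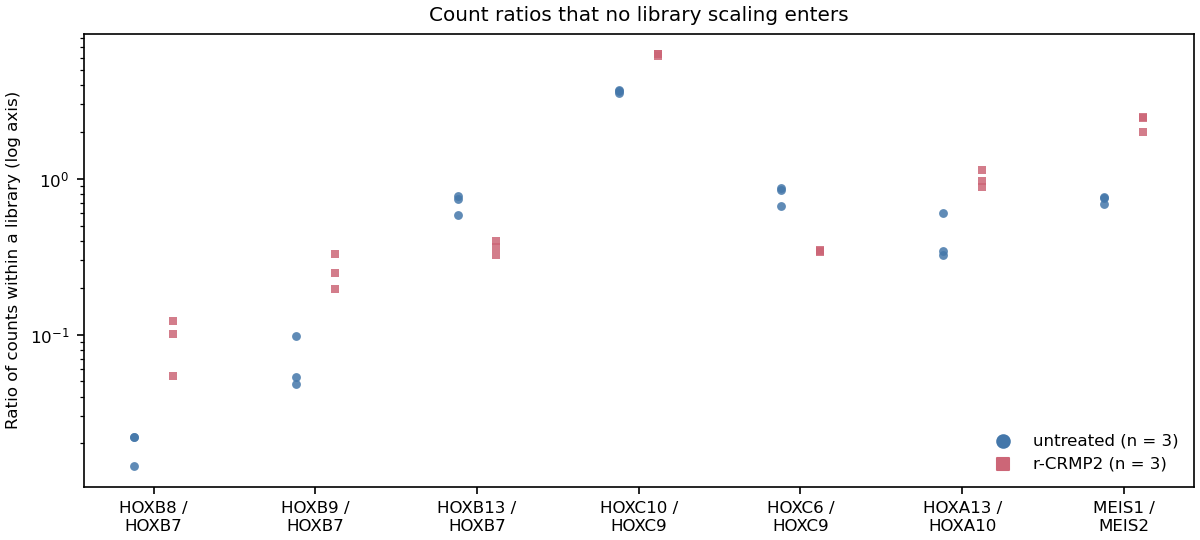
Ratios of the raw counts of 2 genes in the same library (log axis), 1 point per library, for pairs within the HOX clusters and among their TALE partners (n = 3 untreated, n = 3 r-CRMP2). In each pair shown the groups do not overlap, and HOXC10 per HOXC9 count moved from a mean of 3.65 to 6.25.

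HOXC, the most abundant cluster, held 3 falls and 1 rise. HOXC4 (chromosome 12, 54410636 to 54449814, plus strand), which induces the antibody-diversifying enzyme AID in B cells, had 11.5, 14.5 and 13.2 CPM untreated and 5.76, 5.06 and 4.35 CPM with r-CRMP2. It fell, with a log2 fold change of -1.37 ± 0.15 (SE, edgeR adjusted p = 7.49e-08), and it was the only HOX gene past the test against a fold change of 2 (edgeR adjusted p = 0.0320). HOXC6 (54410636 to 54424607, plus strand), a brachial motor neuron gene, had 8.92, 10.6 and 10.9 CPM untreated and 3.89, 4.30 and 3.92 CPM with r-CRMP2 and fell as well, with a log2 fold change of -1.33 ± 0.10 (SE, edgeR adjusted p = 1.45e-07). HOXC8, which acts in the same brachial neurons, had 4.75, 4.36 and 4.61 CPM untreated and 3.23, 3.13 and 2.87 CPM with r-CRMP2, with a log2 fold change of -0.57 ± 0.06 (SE, edgeR adjusted p = 0.00629). For these 3 genes every r-CRMP2 library was below every untreated one.

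HOXC10 (54378946 to 54384063, plus strand) moved the other way. It had 1334, 1109 and 1283 counts in the untreated libraries and 1517, 1508 and 1671 with r-CRMP2, which equals 47.96, 45.2 and 46.9 CPM untreated and 71.01, 76.2 and 72.8 CPM with r-CRMP2. The rise was a log2 fold change of 0.65 ± 0.04 (SE, edgeR adjusted p = 8.24e-08), with no overlap between groups. It was 0.34 with library size alone, still past the threshold (edgeR adjusted p = 0.000189). Its neighbour HOXC9 had 13.4, 12.1 and 12.9 CPM untreated and 11.3, 12.3 and 11.6 CPM with r-CRMP2, and the groups overlapped (a log2 fold change of -0.13 ± 0.06, SE, edgeR adjusted p = 0.305). Per HOXC9 count, HOXC10 had 3.58, 3.72 and 3.64 counts in the untreated libraries and 6.29, 6.18 and 6.28 with r-CRMP2, whereas HOXC6 went from 0.794 ± 0.11 to 0.344 ± 0.0050 and HOXC4 from 1.03 ± 0.17 to 0.432 ± 0.07 (SD, n = 3).

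HOXC5 shares its listed start (54410636) with HOXC4 and HOXC6 and had 5.14, 4.60 and 4.42 CPM untreated and 4.12, 4.20 and 2.66 CPM with r-CRMP2. The groups did not overlap, but it did not pass the test (a log2 fold change of -0.38 ± 0.22, SE, edgeR adjusted p = 0.0883). In GENCODE v29, 18.7% of the 75-base stretches of HOXC4 and 11.7% of those of HOXC6 also occur in transcripts of the other two genes, and 31.1% of those of HOXC5 in transcripts of the listed gene AC012531.2. How reads in such stretches were assigned is not given in the sources used here, so the 3 values are uncertain to that extent. HOXC11, a gene of the hindlimb region, had 3.56, 6.11 and 3.80 CPM untreated and 2.90, 3.84 and 2.87 CPM with r-CRMP2, and its untreated replicate 2 was high (a log2 fold change of -0.48 ± 0.28, SE, edgeR adjusted p = 0.0601). HOXC13 had 16.2, 12.7 and 12.4 CPM untreated and 12.5, 11.6 and 15.02 CPM with r-CRMP2, with overlapping groups and a log2 fold change of -0.08 ± 0.17.

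In HOXA, 1 gene rose and 2 fell. HOXA6 (chromosome 7, 27185202 to 27187393, minus strand), a trunk gene, had 30, 13 and 29 counts in the untreated libraries and 4, 2 and 6 with r-CRMP2, or 1.08, 0.530 and 1.06 CPM untreated and 0.187, 0.101 and 0.261 CPM with r-CRMP2. It fell, with a log2 fold change of -2.23 ± 0.40 (SE, edgeR adjusted p = 0.000700), and the groups did not overlap. HOXA6 passed the filter on low values only through the untreated group, and with at least 10 counts asked of every sample it was not tested. The level was low with r-CRMP2, at 0.448 ± 0.20 TPM against 2.70 ± 0.92 TPM untreated (SD, n = 3). HOXA6 lies wholly under the antisense gene HOXA-AS3, which had at most 4 counts in a library, and under a listed processed transcript on its own strand. That transcript had 38, 35 and 25 counts in the untreated libraries and 20, 22 and 29 with r-CRMP2, in most libraries more than HOXA6 itself. A further transcript on this strand, which overlaps 409 bases of HOXA6, had at most 1 count.

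The genes of the reproductive tract segments did not move together. HOXA10, which specifies the uterus, had 9.10, 12.02 and 11.2 CPM untreated and 7.30, 6.42 and 8.14 CPM with r-CRMP2 and fell, with a log2 fold change of -0.56 ± 0.15 (SE, edgeR adjusted p = 0.00164). HOXA13, which specifies the lowest segment, had 5.50, 3.91 and 3.87 CPM untreated and 7.11, 7.33 and 7.23 CPM with r-CRMP2 and rose, with a log2 fold change of 0.70 ± 0.16 (SE, edgeR adjusted p = 0.000783). HOXA11, between them on the chromosome and in the tract, had 13.02, 12.6 and 13.9 CPM untreated and 11.00, 12.7 and 14.6 CPM with r-CRMP2, and its groups overlapped (a log2 fold change of -0.04 ± 0.13, SE, edgeR adjusted p = 0.777). HOXA9, which marks the oviduct, had 0.611, 0.448 and 0.695 CPM untreated and 0.374, 0.404 and 0.261 CPM with r-CRMP2. Its groups did not overlap, yet it did not pass the test (a log2 fold change of -0.76 ± 0.22, SE, edgeR adjusted p = 0.143). HOXA9 had 17, 11 and 19 counts untreated and 8, 8 and 6 with r-CRMP2, and passed the filter on low values only through the untreated group. Per HOXA10 count, HOXA13 had 0.605, 0.325 and 0.346 counts in the untreated libraries and 0.974, 1.14 and 0.888 with r-CRMP2. Reads of HOXA9 and HOXA10 are uncertain where the readthrough gene HOXA10-HOXA9 is listed over both.

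HOXA3, HOXA4 and HOXA5 did not pass. HOXA3, required for the thymus and parathyroid, had 8.13, 7.62 and 7.35 CPM untreated and 10.02, 8.54 and 9.62 CPM with r-CRMP2. The groups did not overlap, but the log2 fold change was 0.29 ± 0.08 (edgeR adjusted p = 0.0507) and -0.02 with library size alone. HOXA4 had 4.71, 5.05 and 3.95 CPM untreated and 4.03, 5.41 and 6.05 CPM with r-CRMP2, a log2 fold change of 0.18 ± 0.20 that was -0.13 with library size alone. HOXA5, a gene of lung development, had 2.62, 3.55 and 3.18 CPM untreated and 3.14, 3.49 and 2.61 CPM with r-CRMP2, with a log2 fold change of -0.02 ± 0.17, which was 0.0012 with RLE size factors. The groups of HOXA4 and HOXA5 overlapped.

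Only HOXD8 and HOXD9 could be tested in HOXD, and both fell. HOXD8 had 2.88, 4.28 and 3.69 CPM untreated and 2.25, 1.62 and 2.92 CPM with r-CRMP2, with a log2 fold change of -0.66 ± 0.29 (SE, edgeR adjusted p = 0.0177). Its groups overlapped through r-CRMP2 replicate 3, and it did not pass without untreated replicate 2 (edgeR adjusted p = 0.0970) or without r-CRMP2 replicate 2 (0.0901). HOXD9, known from lumbar and limb patterning, had 1.83, 2.73 and 1.83 CPM untreated and 0.936, 0.910 and 1.70 CPM with r-CRMP2, with a log2 fold change of -0.83 ± 0.33 (SE, edgeR adjusted p = 0.0213), and the groups did not overlap. It did not pass without untreated replicate 2 (edgeR adjusted p = 0.132), r-CRMP2 replicate 1 (0.0847) or r-CRMP2 replicate 2 (0.0843). The other 7 HOXD genes together had 7, 4 and 5 counts in the untreated libraries and 3, 8 and 1 with r-CRMP2.

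**Figure D4:**
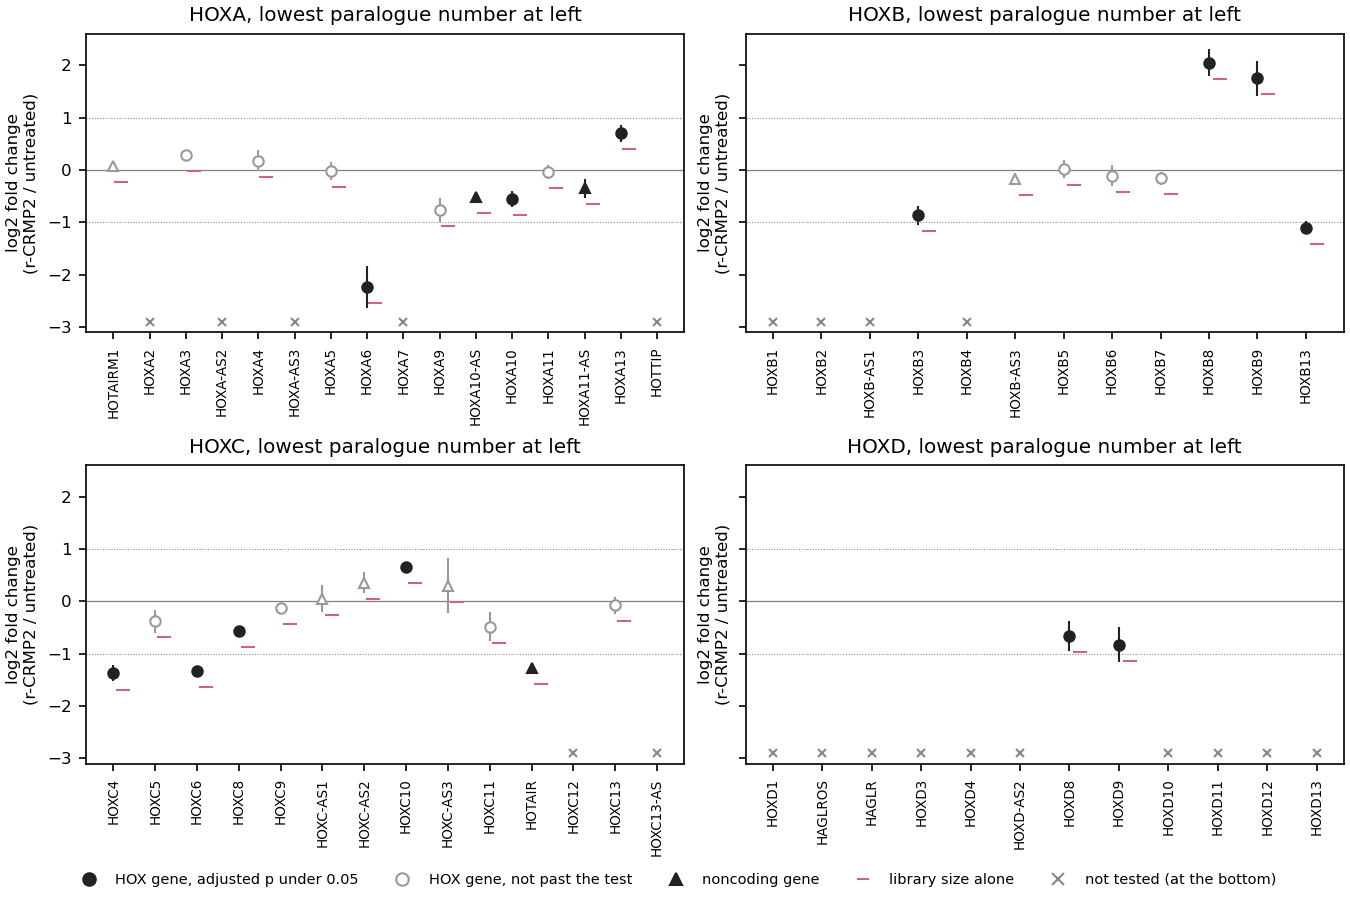
Log2 fold change of HOX genes (circles) and noncoding genes (triangles) of each cluster, ordered by position, with bars for the SE, filled symbols past the adjusted p-value threshold of 0.05, red ticks for library size alone and crosses at the bottom for genes not tested. HOXB8 and HOXB9 stand above the rest of HOXB (2.05 and 1.75), and HOXC4, HOXC6 and HOTAIR lie lowest in HOXC (-1.37, -1.33 and -1.27).

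By cluster, 1 of 8 tested HOXA genes rose and 2 fell, 2 of 7 HOXB genes rose and 2 fell, 1 of 8 HOXC genes rose and 3 fell, and both tested HOXD genes fell. By position, 0 of 2 tested genes with paralogue numbers 1 to 3 rose and 1 fell, 1 of 12 with numbers 4 to 8 rose and 5 fell, and 3 of 11 with numbers 9 to 13 rose and 3 fell. Over all genes tested, 28.2% rose and 30.1% fell. The counts per cluster and range are small, and no difference from those shares, or between clusters or ranges, was tested. The share of summed HOX TPM held by numbers 9 to 13 went from 58.1% ± 2.03 to 68.4% ± 1.09, and that of numbers 4 to 8 from 38.3% ± 1.97 to 28.0% ± 0.79 (SD, n = 3). HOXC10, the most abundant member of numbers 9 to 13, went from 58.0 to 72.7 TPM. The gain in share therefore cannot be read as a shift of the whole range. HOXC went from 58.3% ± 1.15 to 62.4% ± 0.91 and HOXB from 19.0% ± 0.84 to 16.9% ± 0.92. The TPM sum over HOXC, which includes HOXC10, was 133 ± 0.99 untreated and 115 ± 1.98 with r-CRMP2. The summed HOX TPM itself was 228 ± 5.96 untreated and 184 ± 5.09 with r-CRMP2. TPM carries no correction for composition, and the TMM factors were 1.10, 1.12 and 1.12 untreated and 0.92, 0.88 and 0.89 with r-CRMP2. The lower TPM sums with r-CRMP2 therefore cannot be read as a fall of HOX transcripts as a whole. For single genes that fell, fewer transcripts per cell and fewer expressing cells cannot be told apart in these bulk samples.

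Without r-CRMP2 replicate 3, all 13 genes that rose or fell kept their direction and passed the test, with 4 higher and 9 lower. Of the 39 members, 20 overlap another listed gene in the deposited coordinates, 15 of them on the opposite strand, and 15 of the 25 tested are among the 20. Whether the counting used strand is not given in the sources used here, so reads of those genes and their antisense partners cannot be told apart. HOXB7, HOXB8, HOXB9, HOXB13 and HOXA13 overlap no listed gene and share none of their 75-base stretches with another. In GENCODE v29, 17.7% of the stretches of HOXB6 also occur in transcripts of HOXB3. For HOXA4, 26.9% occur in transcripts of AC004080.6. The counts of HOXB3, HOXB6 and HOXA4 are uncertain to that extent.

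The noncoding genes of the clusters were listed for 16 of 22 names, and 8 could be tested, of which 0 rose and 3 fell, with a median log2 fold change of -0.06 (5 did not pass). These 3 are 37.5% of the 8, against 30.1% of all genes. HOTAIR, a long noncoding RNA that binds Polycomb proteins and lies antisense between HOXC11 and HOXC12, had 278, 246 and 244 counts in the untreated libraries and 78, 80 and 99 with r-CRMP2, or 10.00, 10.02 and 8.92 CPM untreated and 3.65, 4.04 and 4.31 CPM with r-CRMP2. It fell, with a log2 fold change of -1.27 ± 0.09 (SE, edgeR adjusted p = 2.23e-07), and the groups did not overlap. HOXC11, which overlaps HOTAIR on the opposite strand, did not pass, as given above. HOXA10-AS fell, with a log2 fold change of -0.52 ± 0.08 (SE, edgeR adjusted p = 0.0168), and did not pass without r-CRMP2 replicate 1 (edgeR adjusted p = 0.0649). HOXA11-AS had a log2 fold change of -0.35 ± 0.18 (SE, edgeR adjusted p = 0.0406), and its groups overlapped. It did not pass with DESeq2 (adjusted p = 0.0696), nor without untreated replicate 1 or 2 or r-CRMP2 replicate 1 or 3 (edgeR adjusted p from 0.0756 to 0.194). HOTAIRM1, a myeloid RNA of the HOXA cluster, had 12.9, 10.96 and 11.6 CPM untreated and 12.1, 13.4 and 12.02 CPM with r-CRMP2, and its groups overlapped.

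Among the TALE partners, 8 of 9 could be tested, of which 2 rose (25.0%, against 28.2% of all genes), 3 fell (37.5%, against 30.1%) and 3 did not pass, with a median log2 fold change of -0.07. MEIS2 had 23.1, 24.1 and 23.9 CPM untreated and 11.2, 10.1 and 10.97 CPM with r-CRMP2, and fell with a log2 fold change of -1.13 ± 0.05 (SE, edgeR adjusted p = 4.40e-09). MEIS1, a partner of HOXA9 in leukaemia, had 17.7, 16.6 and 17.9 CPM untreated and 22.4, 25.1 and 27.1 CPM with r-CRMP2 and rose, with a log2 fold change of 0.52 ± 0.09 (SE, edgeR adjusted p = 6.91e-05), although it was 0.20 and did not pass with library size alone (edgeR adjusted p = 0.0569). The ratio of MEIS1 to MEIS2 counts was 0.765, 0.690 and 0.749 in the untreated libraries and 1.99, 2.49 and 2.47 with r-CRMP2. MEIS3 had 12.4, 14.1 and 12.7 CPM untreated and 9.27, 8.29 and 9.88 CPM with r-CRMP2 and fell too, with a log2 fold change of -0.51 ± 0.09 (SE, edgeR adjusted p = 0.000757). PBX2, the most abundant of them at 68.5 ± 2.15 TPM untreated, had 88.6, 90.2 and 92.1 CPM untreated and 99.98, 96.1 and 97.01 CPM with r-CRMP2, a log2 fold change of 0.11 ± 0.02 that was -0.20 with library size alone. PBX3 rose by 0.34 ± 0.13 (edgeR adjusted p = 0.0226) with TMM and did not pass with library size alone (0.02), nor without untreated replicate 1 or 2 or r-CRMP2 replicate 2 (edgeR adjusted p from 0.0689 to 0.118). For MEIS1, MEIS2 and MEIS3 the groups did not overlap.

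Chromatin regulators of the clusters moved by less. Of 12 genes on the trithorax list, 3 rose, 2 fell and 7 did not pass, with a median log2 fold change of 0.02. Changes reached 0.64 for DOT1L, an H3K79 methyltransferase listed with them though not a trithorax protein, and -0.73 for MEN1, the menin scaffold. With library size alone, 9 of the list fell. The shares of all genes were 28.2% higher and 30.1% lower, and 13.4% and 52.1% with library size alone. Of 11 PRC2 genes, 9 rose (81.8%) and 1 fell (9.09%), with a median of 0.23, but 6 of the 9 had a log2 fold change below 0 with library size alone. Of 12 PRC1 genes, 7 rose (58.3%) and 2 fell (16.7%), with a median of 0.24, and 3 of the 7 were below 0 with library size alone. By that scaling 2 PRC2 genes rose and 2 fell, and 2 PRC1 genes rose and 4 fell. No member of these 3 lists passed the fold change threshold.

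Retinoic acid genes held larger changes. Of 16 listed, 9 could be tested, of which 4 rose (44.4%, against 28.2% of all genes), 2 fell (22.2%, against 30.1%) and 3 did not pass, with a median log2 fold change of 0.14. RARA, the retinoic acid receptor alpha, had 42.9, 43.3 and 42.1 CPM untreated and 124, 152 and 148 CPM with r-CRMP2 and rose, with a log2 fold change of 1.72 ± 0.09 (SE, edgeR adjusted p = 1.28e-12). DHRS3, a retinaldehyde reductase induced by retinoic acid, had 15.3, 13.2 and 11.95 CPM untreated and 34.1, 37.4 and 38.01 CPM with r-CRMP2 and rose, with a log2 fold change of 1.43 ± 0.11 (SE, edgeR adjusted p = 2.70e-10). CYP26B1, which degrades retinoic acid, had 9.17, 11.2 and 11.3 CPM untreated and 2.76, 1.72 and 3.57 CPM with r-CRMP2 and fell, with a log2 fold change of -1.95 ± 0.31 (SE, edgeR adjusted p = 4.01e-08). In these 3 genes the groups did not overlap.

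**Figure D5:**
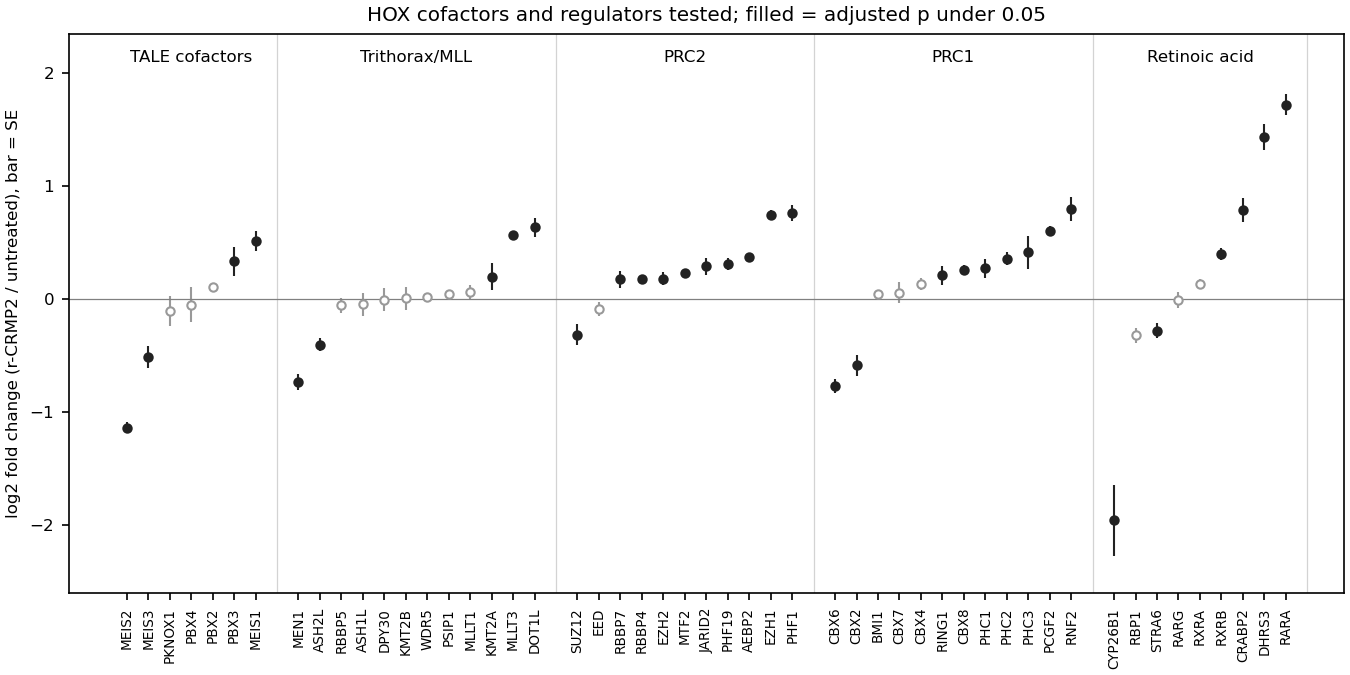
Log2 fold change with its SE (bars) for tested genes of 5 lists of HOX partners and regulators, sorted within each list, with filled points past the adjusted p-value threshold of 0.05. RARA and DHRS3 lie highest (1.72 and 1.43), CYP26B1 and MEIS2 lowest (-1.95 and -1.13), and trithorax and Polycomb genes within 1 of 0.

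Markers of cell types that the samples could hold were read beside these values, and their part in the HOX results was not tested. The summed TPM of 10 ovarian epithelial markers ranged from 4210 to 4420 in the untreated libraries and from 3446 to 3778 with r-CRMP2. Of the 8 tested, 1 rose (12.5%, against 28.2% of all genes) and 2 fell (25.0%, against 30.1%). Their median log2 fold change after TMM was 0.07. The sum of 10 fibroblast markers ranged from 278 to 318 TPM untreated and from 197 to 212 TPM with r-CRMP2. Of 9 tested, 3 rose (33.3%) and 3 fell (33.3%), with a median log2 fold change after TMM of 0.17. FAP had at most 9 counts in a library. The TPM sums carry no correction for composition, so they do not show that either set of markers fell. Of the 3 immune markers only CD68, a lysosomal protein not limited to immune cells, could be tested, and it rose by 1.69 ± 0.09 on the log2 scale (edgeR adjusted p = 3.01e-12).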

How the data were processed

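Polyadenylated RNA of 6 A2780 samples, 3 untreated and 3 given r-CRMP2, was sequenced. The authors deposited, for each library, raw read counts on 44591 genes and TPM values made from those counts and gene lengths. The submitters' processing notes name FastQC, HISAT2, DESeq2 and hg19; the counting tool, annotation and strand setting are not given in the sources used here. Values recomputed from the counts were within 4.72e-06 of the deposited TPM. TPM was used for levels between genes, and counts for all tests.

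Groups were compared with edgeR (4.0.16, limma 3.58.1, R 4.3.3) by the quasi-likelihood test after TMM scaling and edgeR's filter on low counts, with Benjamini-Hochberg adjustment over 16222 genes. Calls required an adjusted p under 0.05, or in addition an absolute log2 fold change above 1. The standard error came from log2 CPM with a prior count of 2, and a count of 0 was given a limit of 3 counts. The depth of 21888530 to 25711353 counts limits genes of a few counts. The fit was tested on simulated data. Alternatives were RLE size factors, no low-count filter, library size alone, DESeq2 (1.42.0), a minimum of 10 counts in each sample, a test against a fold change of 2, the replicate block, each library left out, TPM minimums of 0.5 and 2, and CPM in place of TPM.

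Every HOX gene is in the counts, and some genes that meet the rules below are not reported here by name. Values per library are given for those with a mean of at least 1 TPM or past the adjusted p-value threshold, and HOXA9 was added. Of other lists, genes past both thresholds and TALE genes with a mean of at least 10 TPM are named, and other genes were named after their values were seen. Members and lists (noncoding genes of the clusters, TALE partners, trithorax, PRC2, PRC1, retinoic acid, ParaHox and neighbouring homeobox genes, and cell markers) were chosen with earlier results of these data known. Sequences come from RefSeq (GRCh38.p14) and GENCODE v29 (GRCh38), and no coordinate was converted between builds. Promoters of the other 19 members are not shown.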

Additional observations from a re-analysis of the deposited data

How the results depend on the processing

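Of the 13 HOX genes past the adjusted p-value threshold, 11 kept their direction and their side of it in every alternative that tested them against no change; the exceptions were HOXD8 and HOXD9. With library size alone, 17 HOX genes fell in place of 9, and 7 in place of 4 at both thresholds. TALE genes then changed from 2 to 0 higher and from 3 to 5 lower, trithorax from 2 to 9 lower, PRC2 from 9 to 2 higher and from 1 to 2 lower, PRC1 from 7 to 2 higher and from 2 to 4 lower, and retinoic acid genes from 2 to 5 lower. Of the genes that rose, 6 PRC2, 3 PRC1 and 1 trithorax gene were then below 0. With at least 10 counts in every sample, HOXA6, HOXA9 and HOXB8 were not tested, and at both thresholds 1 HOX gene rose in place of 2 and 3 fell in place of 4. Tested against a fold change of 2, 0 rose and 1, HOXC4, fell, while HOXA6, HOXB8, HOXB9, HOXB13 and HOXC6 did not pass. With CPM in place of TPM, which ignores gene length, HOXA held 23.5%, HOXB 16.8% and HOXC 56.6% of the untreated HOX sum.

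Leaving out 1 library at a time gave 4 to 5 HOX genes higher and 7 to 10 lower, and 2 higher and 4 to 5 lower at both thresholds. It gave 1 to 2 TALE genes higher (1 without untreated replicate 1 or 2 or r-CRMP2 replicate 2), 5 to 8 PRC1 genes higher, 6 to 9 PRC2 genes higher and 2 to 3 trithorax genes higher. Among HOX genes the sign reversed only for those that did not pass: HOXA3 (-0.020), HOXA4 (-0.13) and HOXB5 (-0.29) with library size alone, and HOXA5 with RLE size factors (0.0012) and DESeq2 (0.0014). With single libraries left out, the range crossed 0 for HOXA5 (-0.13 to 0.095), HOXA11 (-0.15 to 0.070), HOXB5 (-0.074 to 0.16), HOXB6 (-0.23 to 0.059) and HOXC13 (-0.19 to 0.060). HOXC11 passed under 6 alternatives, and the cause was not tested.

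The replicate numbers did not pair the libraries: deviations from group means correlated at -0.02, 0.0038 and -0.03, and each library matched best with another number. With the replicate number as a block, 4 HOX genes rose and 10 fell, and 2 rose and 4 fell at both thresholds.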

Other observations

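Homeobox genes outside the 4 clusters were read after the HOX values were seen, by name patterns. Of 65 listed, 29 could be tested, of which 5 rose (17.2%, against 28.2% of all genes) and 11 fell (37.9%, against 30.1%), with a median log2 fold change of -0.16, against -0.03 for all genes. At both thresholds 0 rose (against 5.12% of all genes) and 5 fell (17.2%, against 8.86%). These were DLX1 (-1.09 ± 0.16, a gene of forebrain interneurons), GBX2 (-1.21 ± 0.25, of the hindbrain border), LHX9 (-1.22 ± 0.42, of the early gonad), PITX3 (-1.29 ± 0.17, of the lens and dopamine neurons) each a log2 fold change with its SE, and SIX5, which went from 33.6 ± 2.92 to 16.7 ± 1.94 CPM (SD, n = 3). LHX9 had few reads, going from 1.28 ± 0.31 CPM untreated to 0.559 ± 0.30 CPM with r-CRMP2 (SD, n = 3), and did not pass without untreated replicate 1 or r-CRMP2 replicate 1 or 3 (edgeR adjusted p from 0.0549 to 0.0577). The largest rise was that of ISL2 (0.97 ± 0.07), a motor neuron gene.

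Of 9 ParaHox and neighbouring homeobox genes, 3 could be tested, of which 0 rose (against 28.2% of all genes) and 2 fell (66.7%, against 30.1%). PDX1, a pancreatic regulator, fell by 1.30 ± 0.31 on the log2 scale (edgeR adjusted p = 0.00217), from 2.55, 1.43 and 1.54 CPM to 0.889, 0.556 and 0.784 CPM. CDX2, an intestinal regulator that acts on HOX genes, fell by 0.63 ± 0.12 (edgeR adjusted p = 0.00136). MNX1 had a log2 fold change of -0.20 ± 0.11 and did not pass.

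Other protein-coding genes within 200 kb of the clusters numbered 13, and 7 could be tested. Of these, 2 rose (28.6%, against 28.2% of all genes) and 2 fell (28.6%, against 30.1%), shares close to those of all genes. SMUG1, a DNA repair glycosylase beside HOXC, fell by 1.08 ± 0.06 (edgeR adjusted p = 1.41e-08), from 21.2, 23.8 and 22.5 CPM to 11.2, 10.6 and 10.2 CPM. LNPK, beside HOXD, rose by 0.61 ± 0.06 (edgeR adjusted p = 7.14e-07), and CALCOCO2, beside HOXB, rose by 0.49 ± 0.03 (edgeR adjusted p = 4.89e-06). CBX5, beside HOXC, had a log2 fold change of -0.04 ± 0.04 and overlapping groups.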
